A study of Mus musculus with 6 samples.

Results

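The genes described here were 10 genes of salt and water absorption in the colon, namely the 3 subunits of the epithelial sodium channel ENaC (Scnn1a, Scnn1b and Scnn1g), the proton and potassium pump Atp12a, the genes of the aldosterone response Nr3c2, Hsd11b2 and Sgk1, and the water channels Aqp1, Aqp4 and Aqp8. They were chosen by gene symbol, all 10 were found among the 18477 genes of the deposited table, and all 10 passed the filter on low counts that left 14579 tested genes. RNA was sequenced from the colon of male C57BL/6 mice aged 6 to 8 weeks, all of which drank 2% dextran sulfate sodium (DSS), which damages the lining of the colon, from day 8 to day 14. The DSS group received PBS by gavage daily for 14 days (n = 3 mice), and the DSS+BV group received the gut bacterium *B. vulgatus* in its place (n = 3 mice). No mouse without DSS was sequenced, so the levels below are those of the injured colon. The piece of colon that gave the RNA was not stated, and the labels gave no batch.

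ENaC carries sodium from the gut lumen into the surface cells of the colon, and needs all of its alpha, beta and gamma subunits, encoded by Scnn1a, Scnn1b and Scnn1g, for full activity. Aldosterone acts on it through the mineralocorticoid receptor Nr3c2. The enzyme Hsd11b2 inactivates glucocorticoids that would otherwise occupy this receptor, and the kinase Sgk1, a target of the receptor, keeps the channel at the cell surface. Atp12a, the colonic pump that takes up potassium in exchange for protons, and ENaC are known mainly from the distal colon. Aquaporins carry water across membranes. Aqp8 is found in colon surface cells, Aqp4 in the basolateral membrane of epithelium and in glia, and Aqp1 in endothelium. In the grouping used here, Scnn1b, Scnn1g, Atp12a and Aqp8 stood for the distal colon and Aqp4 for the proximal colon.

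Scnn1g (Entrez gene 20278, chr7:121734420-121768482 in GRCm38.p6) and Scnn1b (Entrez gene 20277, chr7:121865038-121918728) are neighbours on the forward strand, with 96.6 kb between the end of Scnn1g and the start of Scnn1b. Aqp8 (Entrez gene 11833, chr7:123462294-123468003) starts 1.54 Mb beyond Scnn1b. Sequence upstream of both channel genes is shown because the neighbours differed across libraries, and a window of the aldosterone target Sgk1 (Entrez gene 20393, chr10:21882184-21999903) because it held a steroid receptor motif. All are forward-strand RefSeq sequence of GRCm38.p6, at chr7:121734229-121734419, chr7:121864788-121865037 and chr10:21993640-21993889. The Scnn1g window of the RefSeq table reaches 59 bases into the annotated gene, and the 191 bases before the gene are shown. The Sgk1 window lies inside the annotated span of the gene, before a later one of its 6 listed transcript starts. Capitals mark AGAACA on either strand and, in Sgk1, the whole palindrome described below.
Scnn1g: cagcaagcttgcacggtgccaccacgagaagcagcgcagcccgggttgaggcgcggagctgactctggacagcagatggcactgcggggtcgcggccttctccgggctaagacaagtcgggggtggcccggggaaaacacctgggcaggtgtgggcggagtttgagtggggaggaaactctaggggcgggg
Scnn1b: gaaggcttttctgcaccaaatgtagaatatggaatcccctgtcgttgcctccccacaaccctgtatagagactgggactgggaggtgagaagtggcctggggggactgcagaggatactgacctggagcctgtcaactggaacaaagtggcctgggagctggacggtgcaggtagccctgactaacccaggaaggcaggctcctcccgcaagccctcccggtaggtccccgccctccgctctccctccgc
Sgk1: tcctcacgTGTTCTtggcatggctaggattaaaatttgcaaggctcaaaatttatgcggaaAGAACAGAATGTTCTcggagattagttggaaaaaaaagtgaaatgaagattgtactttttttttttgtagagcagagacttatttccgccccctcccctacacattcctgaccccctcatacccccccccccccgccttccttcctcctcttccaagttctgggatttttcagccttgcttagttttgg
The 4 motifs below were searched on both strands, and windows were matched for 6 of the 10 genes. The steroid receptor palindrome, AGAACA and TGTTCT with 3 bases of any kind between them, was present in 3 of 32851 windows (0.00913%), and 1 of these was the Sgk1 window, at chr10:21993701-21993715. The motif's 6-base part AGAACA, which the palindrome contains on both strands, was present in 16.1% of windows. The letters CAATAAA and TCGTAAA, bound by the Hox proteins of the posterior body, were present in 4.2% and 0.478% of windows. The windows of Scnn1g, Scnn1b, Aqp8, Aqp1 and Nr3c2 held none of these letters. A match is a match of letters and not a measured site.

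Levels are given as CPM, the expected counts scaled to a common library size with TMM factors, and values of single libraries are listed in the order of replicates 1, 2 and 3. Library totals lay between 15293276 and 17254343 expected counts. To set the genes in order, CPM was divided by the length of the longest transcript. On this scale the mean over the 6 libraries was highest for Aqp8, at 188 CPM per kb, followed by Aqp4 at 127, Atp12a at 106, Sgk1 at 94.1 and Hsd11b2 at 91.5 CPM per kb. These 5 genes could not be put in a firm order, since each was above the next in only 4 of 6 libraries. The place of Aqp4 also rested on its transcript, and with the shortest of its 7 transcripts its mean was 535 CPM per kb. Aqp1 was at 38.9, Scnn1a at 26.7 and Nr3c2 at 17.8 CPM per kb, and Hsd11b2 was above Aqp1 in 6 of 6 libraries. Scnn1b at 4.44 CPM per kb and Scnn1g at 2.03 CPM per kb were the lowest, and Nr3c2 was above Scnn1b, and Scnn1b above Scnn1g, in 6 of 6 libraries.

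Between the DSS+BV and DSS groups, 0 of the 10 genes were called, in either direction, by edgeR's quasi-likelihood test with the limits of 0.05 on the adjusted p and 1 on the size of the log2 fold change. The same rule called 0.0892% of all tested genes. At an unadjusted p-value under 0.05 there was 1 of the 10, Nr3c2, in the higher direction, against 3.4% of all tested genes higher, 9.12% lower and 12.5% in both directions, and DESeq2 also called 0 of the 10. The groups did not overlap for 1 of the 10, again Nr3c2, against 17.6% of all tested genes. The median log2 fold change of the 10 genes was 0.19, with 4 below 0 and 6 above, and that of all tested genes was -0.01. With 3 mice per group, 0.1 is the smallest two-sided p that an exact permutation test of 1 gene allows. In whole colon tissue, fewer cells of a type and less RNA per cell cannot be told apart.

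**Figure D1:**
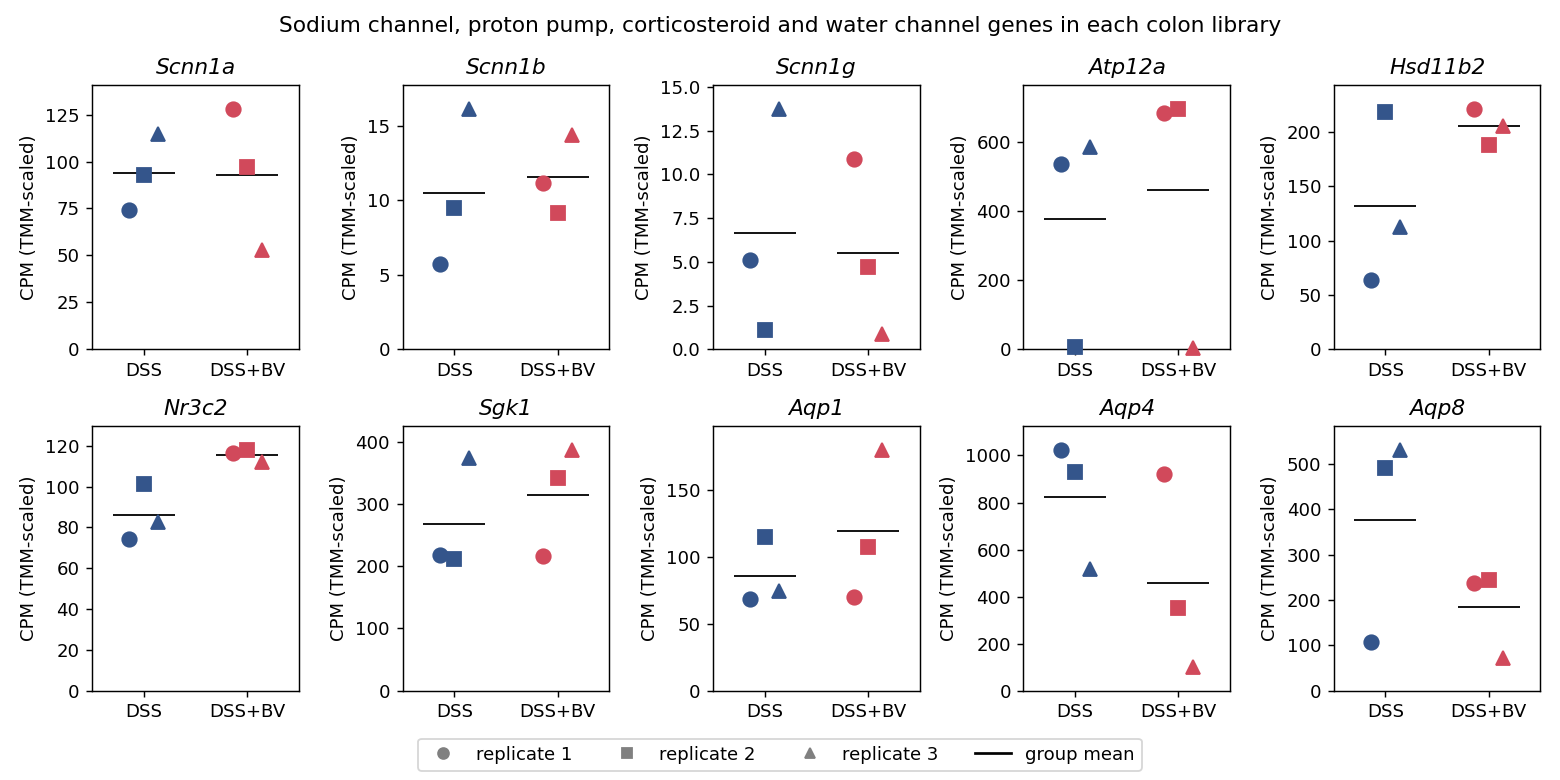
CPM of the 10 genes (vertical axes, linear and starting at 0) in the 3 DSS libraries (blue) and the 3 DSS+BV libraries (red), with the replicate number as the symbol and the group mean as a line. Atp12a lay between 535 and 696 CPM in 4 libraries and at 7.46 and 3.48 CPM in DSS 2 and DSS+BV 3, and Nr3c2 was the one gene whose groups did not overlap.

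The alpha subunit Scnn1a (Entrez gene 20276, chr6:125314271-125344943) had 74.1, 92.8 and 115 CPM in the DSS mice, and 128, 97.1 and 52.9 CPM in the DSS+BV mice. The DSS+BV group held both the highest and the lowest library, and the means of 93.9 ± 20.3 and 92.6 ± 37.8 CPM (SD, n = 3 each) were close. The log2 fold change was -0.02 (standard error 0.33, edgeR adjusted p = 0.987). Its sign changed with the processing.

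The beta subunit Scnn1b had 5.75, 9.51 and 16.1 CPM in the DSS mice, and 11.1, 9.17 and 14.4 CPM in the DSS+BV mice. Its lowest and highest values were both in the DSS group, and the log2 fold change was 0.14 (standard error 0.40, edgeR adjusted p = 0.904). The gamma subunit Scnn1g had 5.09, 1.12 and 13.7 CPM in the DSS mice, and 10.9, 4.71 and 0.885 CPM in the DSS+BV mice. One library of each group was low, DSS 2 with 18 expected counts and DSS+BV 3 with 14, where the others had between 74 and 236. Its log2 fold change, -0.28, carried a standard error of 1.04 (edgeR adjusted p = 0.930). The within-group SD of its log2 CPM was larger than in 99.0% of tested genes, and for Scnn1b and Scnn1a these shares were 79.6% and 76.2%.

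The neighbours Scnn1b and Scnn1g therefore did not keep a fixed ratio. Per kb, Scnn1b was 1.36, 10.3 and 1.42 times Scnn1g in the DSS mice, and 1.24, 2.35 and 19.6 times Scnn1g in the DSS+BV mice. The ratio was highest in DSS 2 and DSS+BV 3, where Scnn1g was low and Scnn1b was not. Of the summed level of the 3 subunits per kb, Scnn1a gave between 71.3% and 86.3% in the 6 libraries. Scnn1g gave 1.22% in DSS 2 and 1.40% in DSS+BV 3, and between 4.77% and 10.5% in the other libraries. Scnn1b gave 27.3% in DSS+BV 3, its largest share, and between 9.20% and 14.8% elsewhere.

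**Figure D2:**
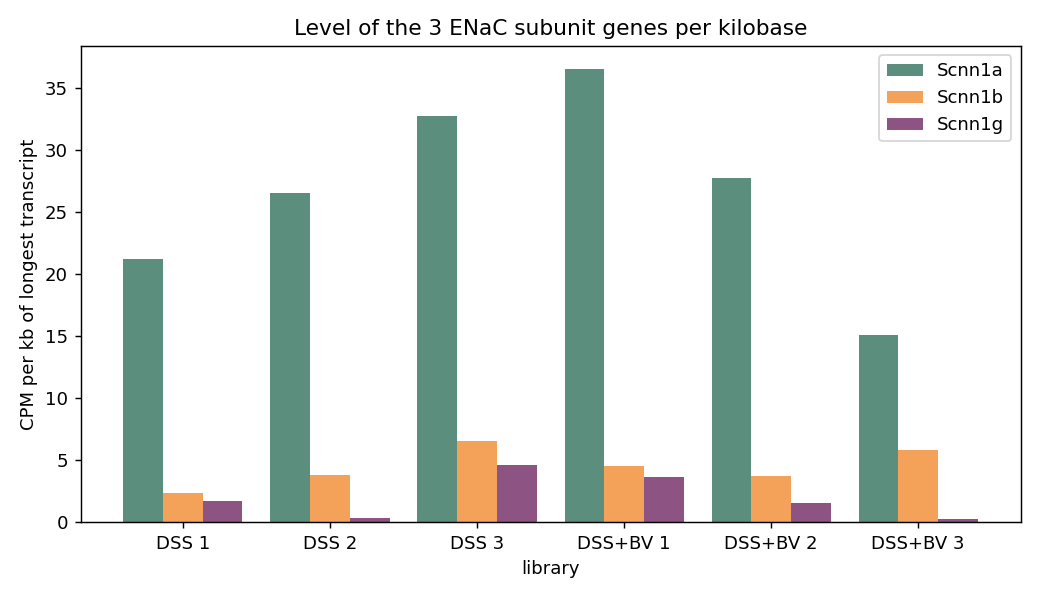
Levels of the ENaC subunits Scnn1a, Scnn1b and Scnn1g per kb of transcript (vertical axis, CPM per kb of the longest transcript, bars from 0, 1 bar per gene) in each of the 6 libraries. Scnn1a was the highest subunit in every library, and the Scnn1g bar was lowest in DSS 2 and DSS+BV 3, where the Scnn1b bar was not.

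Atp12a (Entrez gene 192113, chr14:56364669-56388551) had 535, 7.46 and 586 CPM in the DSS mice, and 684, 696 and 3.48 CPM in the DSS+BV mice. The pump was thus abundant in 4 libraries and nearly missing in DSS 2 and DSS+BV 3, with 120 and 55 expected counts against 8937 to 10917. The within-group SD of log2 CPM was larger than in 99.9% of tested genes, and the log2 fold change between groups was 0.29 with a standard error of 1.72 (edgeR adjusted p = 0.957). It ran from -0.27 without DSS 2 to 1.40 when the mean log2 level of the Hox13 genes entered the fit as a covariate. This covariate was 6.09, 3.28 and 5.29 in the DSS mice, and 5.96, 4.72 and -2.37 in the DSS+BV mice.

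DSS 2 and DSS+BV 3 also had low levels of some of the Hox genes that mark the posterior gut. Hoxb13 had 211, 36.4 and 125 CPM in the DSS mice, and 248, 112 and 0 CPM in the DSS+BV mice. Hoxd13 had 98.8, 1.06 and 42.9 CPM in the DSS mice, and 61.9, 35.2 and 0.0632 CPM in the DSS+BV mice. Both were lowest in the same pair of libraries as Atp12a and Scnn1g. The count of 0 for Hoxb13 in DSS+BV 3 allows up to 0.19 CPM, at 3 counts. Hoxa13 did not share this order, with 15.1, 21.0 and 11.1 CPM in the DSS mice and 15.6, 4.46 and 0.190 CPM in the DSS+BV mice, so that DSS 2 was its highest library. Of the other distal Hox genes, Hoxd12 was at 0 in both DSS 2 and DSS+BV 3. Hoxd11 and Hoxd10 were lowest in DSS 2, at 0.249 and 0.124 CPM, but second highest in DSS+BV 3, at 5.31 and 8.41 CPM. Hoxa11 was second highest in DSS 2 and lowest in DSS+BV 3, at 4.80 CPM.

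More anterior Hox genes divided the libraries in another way. Hoxb6 had 1.08, 2.18 and 3.32 CPM in the DSS mice, and 1.06, 34.2 and 40.0 CPM in the DSS+BV mice. It was high in DSS+BV 2 and DSS+BV 3 and low in DSS 2, and Hoxb8 had the same division, with 11.5 and 16.8 CPM against at most 0.808 CPM. Hoxa5, the next of these genes by mean CPM, was instead lowest in DSS+BV 3, at 2.91 CPM. The colonocyte enzyme Car1 followed the same division, at 10453 CPM in DSS+BV 2 and 8702 CPM in DSS+BV 3 and between 825 and 1041 CPM in the other 4 libraries. Over the 7 proximal Hox genes the median log2 fold change was 1.37, with 3 higher at an unadjusted p-value under 0.05. For the 7 distal Hox genes it was -0.30, with 1 lower at this limit. Of all tested genes, 3.4% were higher and 9.12% lower at the same limit. None of the 14 Hox genes was called. The part of the position along the colon in the values below was not tested.

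Of all 14579 tested genes, 1031 (7.07%) were lower in both DSS 2 and DSS+BV 3 than in each of the other 4 libraries, 57 (0.391%) by at least 2-fold and 13 (0.0892%) by at least 10-fold. The lowest of the 4 libraries was 71.7 times the higher of the pair for Atp12a, 33.3 times for Hoxd13, 4.21 times for Scnn1g and 3.08 times for Hoxb13. Among genes with a read in at least 1 of the pair, a ratio as large as that of Atp12a was found for 3, Casp14, St8sia5 and Atp12a itself, of which the first pair had at most 0.0622 CPM in DSS 2 and DSS+BV 3. A ratio as large as that of Scnn1g was found for 12, again leaving out genes at 0 in both libraries. Such genes, Hoxd12 among them, do count in the 57 and 13 genes above. These 2 libraries were picked for their low values, so the ratios are a description. Without DSS 2 and DSS+BV 3, a choice made after the data were seen, edgeR called 0 of 14607 tested genes (0%), and so 0 of the 10. At an unadjusted p-value under 0.05, Hsd11b2 and Nr3c2 were higher in that fit, among 827 lower and 810 higher genes.

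**Figure D3:**
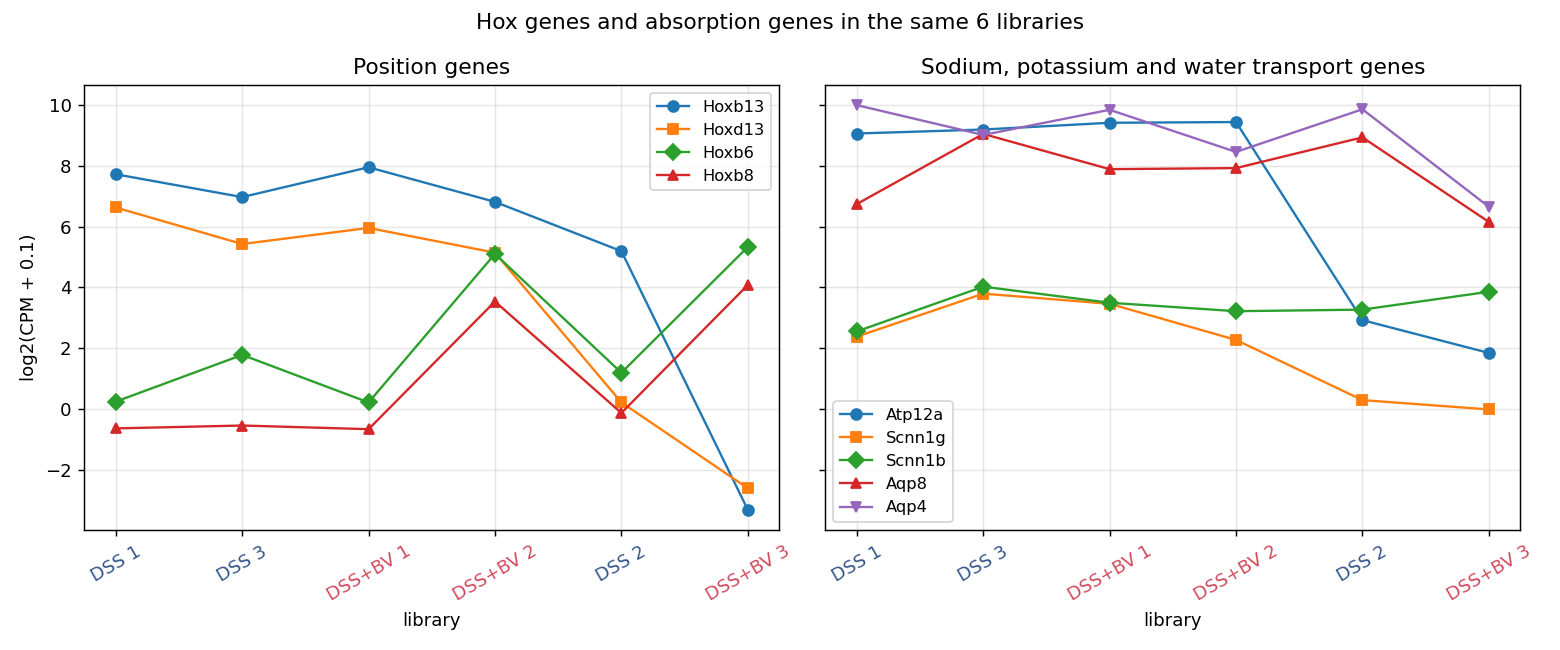
Log2 of CPM + 0.1 (vertical axes) of 4 Hox genes (left) and 5 transport genes (right) in the 6 libraries, with DSS 2 and DSS+BV 3 placed last and lines that only join the points of a gene. Atp12a, Scnn1g, Hoxb13 and Hoxd13 were lowest in DSS 2 and DSS+BV 3, whereas Hoxb6 and Hoxb8 were highest in DSS+BV 2 and DSS+BV 3.

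Among the genes of the aldosterone response, the receptor Nr3c2 (Entrez gene 110784, chr8:76898083-77245012) had 74.3, 101 and 82.7 CPM in the DSS mice, and 116, 118 and 112 CPM in the DSS+BV mice. Each DSS+BV library was above each DSS library, as for 6.37% of all tested genes in this direction. The means were 86.0 ± 13.7 and 116 ± 2.91 CPM (SD, n = 3 each), and the log2 fold change was 0.43 (standard error 0.15, unadjusted p = 0.0240 and adjusted p = 0.356 from edgeR, exact permutation p = 0.1). The difference did not pass the test, and the adjusted p lay between 0.176 and 0.903 over the alternatives. The within-group SD was larger than in only 20.2% of tested genes, the smallest such share of the 10 genes.

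Hsd11b2 (Entrez gene 15484, chr8:105518746-105523988) had 63.9, 218 and 113 CPM in the DSS mice, and 221, 188 and 206 CPM in the DSS+BV mice. DSS 1 and DSS 3 were below all DSS+BV libraries, and DSS 2 lay within their range. The means were 132 ± 78.8 and 205 ± 16.5 CPM (SD, n = 3 each), and the log2 difference was 0.64 (standard error 0.41, edgeR adjusted p = 0.558). The value was 0.31 without DSS 1 and 1.22 without DSS 2 (edgeR adjusted p = 0.176, the lowest of a range up to 0.924 over the alternatives). Sgk1 had 217, 211 and 374 CPM in the DSS mice, and 217, 342 and 386 CPM in the DSS+BV mice. The groups overlapped over most of their range, and the log2 fold change was 0.23 (standard error 0.31, edgeR adjusted p = 0.779). It was 0.066 without DSS+BV 3 and 0.56 without DSS 3.

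Of the water channels, Aqp8 had 107, 490 and 530 CPM in the DSS mice, and 237, 243 and 71.1 CPM in the DSS+BV mice. DSS 2 and DSS 3 were above all DSS+BV libraries, while DSS 1 was second lowest of all. The means were 376 ± 234 and 184 ± 97.6 CPM (SD, n = 3 each), and the log2 fold change of -1.03 had a standard error of 0.68 (edgeR adjusted p = 0.566). It was -1.47 without DSS 1, -0.64 without DSS+BV 3 and -0.41 without DSS 2 and DSS+BV 3. Aqp8, assigned to the distal colon, was not low in DSS 2, where Atp12a and Scnn1g were.

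Aqp4 (Entrez gene 11829, chr18:15389394-15410982) had 1022, 930 and 518 CPM in the DSS mice, and 920, 352 and 100.4 CPM in the DSS+BV mice. Its lowest libraries were DSS+BV 3 and DSS+BV 2, the pair with high Hoxb6 and Car1. The libraries with the lowest Hoxb13 and Hoxd13 differed, as Aqp4 was lowest in DSS+BV 3 and second highest in DSS 2. The means were 824 ± 269 and 457 ± 420 CPM (SD, n = 3 each), and the log2 difference was -0.85 (standard error 0.72, edgeR adjusted p = 0.656). It was -1.85 without DSS+BV 1, -0.37 without DSS+BV 3 and -0.25 without DSS 2 and DSS+BV 3. Enteric glia can also hold Aqp4, and 5 of their 6 markers were tested. Of these, 3 were lower at an unadjusted p-value under 0.05, against 9.12% of all tested genes. The markers summed to between 37.5 and 83.9 CPM in the DSS group and between 24.8 and 32.4 CPM in the DSS+BV group. The part of glia in the Aqp4 values was not tested.

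Aqp1 (Entrez gene 11826, chr6:55336299-55348555) had 68.4, 114 and 74.7 CPM in the DSS mice, and 69.7, 107 and 179 CPM in the DSS+BV mice. DSS+BV 3 was the highest library, and the log2 difference between groups, 0.47 (standard error 0.37, edgeR adjusted p = 0.629), was 0.05 without it and 0.75 without DSS+BV 1. The endothelial gene Pecam1 was lowest in this library, at 47.0 CPM, and lay between 55.7 and 120 CPM in the others. The 11 blood endothelial markers, all with a log2 fold change below 0, had a median of -0.63. At an unadjusted p-value under 0.05, 6 of these 11 were lower, against 9.12% of all tested genes. Plvap and Pecam1 had the highest CPM, none was at 0, and their sum was between 488 and 673 CPM in the DSS group and between 333 and 427 CPM in the DSS+BV group. In DSS+BV 3, where Aqp1 was highest, the sum of these markers was lowest, at 333 CPM. Kdr, Emcn and Vwf were higher there than in DSS+BV 2, at 56.8, 14.1 and 52.2 CPM, and the other markers were lowest in DSS+BV 3. The 6 erythroid markers tested, a further cell type known to hold Aqp1, had a median of -1.19, with Hbb-bs and Hba-a1 of highest CPM and sums of 214 to 434 CPM in the DSS group and 42.0 to 178 CPM in the DSS+BV group. The part of either cell type in the Aqp1 values was not tested.

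Distal genes were then set against Aqp4 within each library, as the difference of log2 CPM. Aqp4 stood for the proximal colon by the grouping alone. It was lowest in DSS+BV 3 and DSS+BV 2, where the more anterior Hoxb6 was highest and Hoxa5 was lowest. For Atp12a minus Aqp4 it was -0.93, -6.94 and 0.18 in the DSS mice, and -0.43, 0.98 and -4.80 in the DSS+BV mice. For Scnn1b minus Aqp4 it was -7.44, -6.59 and -4.99 in the DSS mice, and -6.35, -5.24 and -2.80 in the DSS+BV mice. The 2 distal genes thus ranked the libraries differently, since DSS+BV 3 had the highest Scnn1b and the second lowest Atp12a relative to Aqp4. Aqp4 itself was lowest in DSS+BV 3, at 100.4 CPM, and Scnn1b, at 14.4 CPM there, was below its 16.1 CPM in DSS 3. For Scnn1g minus Aqp4 the difference was lowest in DSS 2, at -9.55, and highest in DSS 3, at -5.22. For Aqp8 minus Aqp4 it was -3.25, -0.92 and 0.03 in the DSS mice, and -1.95, -0.53 and -0.50 in the DSS+BV mice. The groups overlapped for each of these 4 differences, all of which share Aqp4.

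The 6 lists of other genes of salt and water transport held 84 genes, of which 69 were tested and 0 were called by edgeR (smallest adjusted p = 0.241). At an unadjusted p-value under 0.05 there were 9 (13.0%, against 12.5% of all tested genes), 4 lower and 5 higher, and the median log2 fold change was 0.14. DESeq2 called 1, Slc4a4, as higher, against 2.01% of all genes with DESeq2.

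Of 16 tested sodium absorption genes, 1 was higher at an unadjusted p-value under 0.05 and the median was 0.23. This was Slc4a4, the basolateral sodium bicarbonate cotransporter, with 37.4, 66.7 and 28.4 CPM in the DSS mice, and 121, 105 and 117 CPM in the DSS+BV mice. The groups did not overlap, and the log2 fold change was 1.37 (standard error 0.31, edgeR adjusted p = 0.241). It was the largest difference relative to its error in these lists. Atp1b1, a subunit of the sodium pump that drives absorption, had a log2 fold change of 0.27, and the chloride bicarbonate exchanger Slc26a3 had 0.18.

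Of 19 regulators of ENaC, 1 was lower and 2 were higher at an unadjusted p-value under 0.05, with a median of 0.04. Furin, a protease that cleaves and activates the channel, averaged 98.6 ± 6.17 CPM with DSS and 73.9 ± 7.43 CPM with DSS+BV (SD, n = 3 each; log2 fold change -0.42, edgeR adjusted p = 0.329). Usp2, a deubiquitinase that acts on ENaC, was at 15.6 ± 4.64 and 29.4 ± 2.17 CPM (SD, n = 3 each; log2 fold change 0.91, edgeR adjusted p = 0.281). The groups did not overlap for either gene, as for 17.6% of all tested genes, and neither difference passed the edgeR test. With DESeq2, Usp2 had an adjusted p of 0.0286 and a log2 fold change of 0.93, below the limit of 1 for a call. The kinase Stk39 had a log2 fold change of 0.45 (edgeR adjusted p = 0.388). The protease Tmprss2, the protease inhibitor Spint2 and the ubiquitin ligase Nedd4, the genes of highest CPM in the list, had 0.14, 0.39 and -0.04.

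Of 12 tested genes of corticosteroid signalling, 1 was lower and 1 was higher at an unadjusted p-value under 0.05, with a median of -0.04. Fkbp5, a glucocorticoid receptor target and co-chaperone, was at 193 ± 8.20 and 292 ± 64.9 CPM (SD, n = 3 each; log2 fold change 0.59, edgeR adjusted p = 0.341). H6pd, which supplies NADPH to the enzyme Hsd11b1, had a log2 fold change of -0.57 (edgeR adjusted p = 0.356). These directions differ within the list, and the chaperones Hsp90aa1 and Fkbp4 had 0.01 and 0.45.

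Of 13 chloride secretion genes, 0 had an unadjusted p-value under 0.05 and the median was 0.51. The goblet cell gene Clca1 had a log2 fold change of -0.25, Clca4b had -2.03 (standard error 1.15) and the hormone precursor Guca2a had 0.67. Of 9 tested potassium channel and pump genes, 2 were lower and 1 was higher at an unadjusted p-value under 0.05, with a median of -0.17. The epithelial subunit Kcne3 was at 74.4 ± 26.3 and 138 ± 21.8 CPM (SD, n = 3 each; log2 fold change 0.89, edgeR adjusted p = 0.344). The calcium-activated channel subunits Kcnmb1 and Kcnmb4 had -0.90 and -1.79 (edgeR adjusted p = 0.378 and 0.281), and Kcnmb4 stayed at or below 1.05 CPM in every library. The potassium channels Kcnk5 and Kcnq1 had 0.30 and 1.20. Among the other aquaporins only Aqp11 was tested, with a log2 fold change of 1.03 (edgeR adjusted p = 0.560), and Aqp3 lay between 0.249 and 0.778 CPM.

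**Figure D4:**
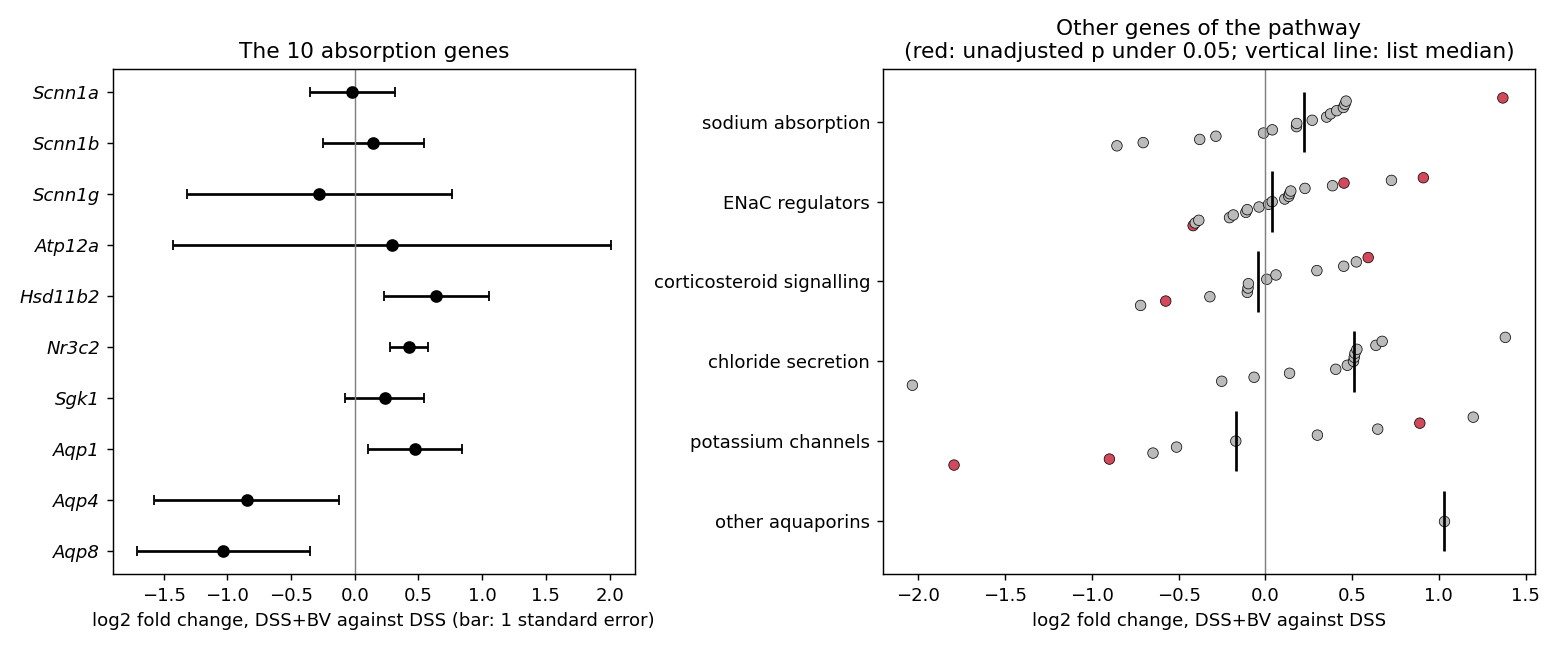
Log2 fold change, DSS+BV against DSS, of the 10 genes with 1 standard error (left) and of the tested genes of the 6 transport lists (right), where red marks an unadjusted edgeR p-value under 0.05 and the vertical line the list median. The standard error was largest for Atp12a (1.72) and smallest for Nr3c2 (0.15), and Slc4a4 was at 1.37.

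Summed RNA of the cell type markers differed between the groups for some lists, and overlapped for others. Colonocyte markers summed to between 9847 and 13027 CPM in the DSS group and between 14733 and 26618 CPM in the DSS+BV group (12 tested, median log2 fold change 0.46). At an unadjusted p-value under 0.05, 4 of the 12 were higher, against 3.4% of all tested genes. Krt8 and Car1 had the highest CPM of them. Car1 had 10453 and 8702 CPM in DSS+BV 2 and DSS+BV 3, against 825 to 1041 CPM in the other libraries. With Car1 left out, the sums of the groups overlapped, but only between DSS 3 and DSS+BV 3. The difference was not that of Car1 alone, as 11 of the 12 markers had a log2 fold change above 0. For 3 of the 12, Krt8 among them, each DSS+BV library was above each DSS library, against 6.37% of all tested genes. Neutrophil markers had a median of -3.61 over 11 genes, 6 of them called lower, against 0.0892% of all tested genes. For 9 of the 11 each DSS+BV library was below each DSS library, against 11.3% of all tested genes in this direction. The sums overlapped, at 221 to 1066 CPM in the DSS group and 32.4 to 329 CPM in the DSS+BV group. So did Ly6g, a large part of these sums, with 485, 76.1 and 854 CPM in the DSS mice, and 303, 215 and 19.1 CPM in the DSS+BV mice. Ly6g and S100a9 had the highest CPM. The other immune and stromal lists also had medians below 0, and 0 of their genes were called by edgeR. The medians were -0.86 for macrophages and monocytes, -0.86 for lymphatic endothelium, -0.93 for enteric glia and -0.20 for smooth muscle. In this order, 2 of 10, 4 of 6, 3 of 5 and 0 of 8 tested genes were lower at an unadjusted p-value under 0.05. The share of all tested genes was 9.12%. The genes of highest CPM were Lyz2 and C1qa for macrophages and monocytes, Lyve1 and Mmrn1 for lymphatic endothelium, and Myh11 and Acta2 for smooth muscle, and Gfap was among the glial markers. Squamous markers summed to between 6.18 and 10.5 CPM over the 6 libraries, with Sbsn and Krt10 of highest CPM, and Krt1, Krt5 and Krt4 were at or near 0. Of the 9 pancreas markers only Cela1 was tested, at a log2 fold change of 0.24, and it was lowest in DSS+BV 3, at 28.7 CPM. The other 8 had their highest values in DSS+BV 3, from 0.126 CPM for Prss2 and Try4 to 4.93 CPM for Amy2a5, and at most 0.462 CPM in any other library. The part of these cell types in the values of the 10 genes was not tested.

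Genes whose log2 CPM was most like that of a channel gene over the 6 libraries were taken as the 3 with the highest Pearson correlation among all tested genes. For Scnn1g these were Jak2 (r = 0.989), Stard6 (r = 0.988) and Plcl2 (r = 0.987), and for Scnn1b they were Zfp943, Clec2d and Itm2b (r = 0.978, 0.976 and 0.975). For Scnn1a they were Timp4, Ndel1 and Lgi1 (r = 0.996, 0.994 and 0.984). For Aqp4 they were Lgr4, Rpl10 and Robo2 (r = 0.995, 0.986 and 0.984), and for Aqp8 they were Plxnb3, Zmat2 and Rab33a (r = 0.996, 0.986 and 0.985). No gene stood on the lists of 2 channel genes. The libraries of both groups were pooled, and with 6 points and 14579 genes such values are a description of these libraries. The likeness was one of linear pattern and not of the size of the differences, since Jak2 lay between 103 and 132 CPM where Scnn1g lay between 0.885 and 13.7 CPM.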

How the data were processed

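Colon RNA of 6 mice was sequenced on a DNBSEQ-T7 instrument. Per the labels, the submitters' processing notes name HISAT2 2.1.0, Bowtie2 2.2.5, RSEM 1.2.8 and the build GRCm38.p6. The authors deposited RSEM expected counts per gene, unscaled, and strandedness was not given in the sources used here. Here they were rounded, filtered with filterByExpr (minimum count 10, minimum total 15), TMM-scaled and tested with edgeR 4.0.16 (quasi-likelihood, Benjamini-Hochberg over 14579 genes), first on simulated data. Gene lengths came from GENCODE transcripts and promoters from RefSeq, both GRCm38.p6.

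The genes, lists and tests were chosen with earlier results of these data known. Named were the 10 genes, in each transport list the 3 of highest mean CPM and up to 3 per direction with the smallest unadjusted p-value under 0.05, 2 genes per marker list, the Hox13 genes and the 3 nearest genes of 5 channels. Hoxb8, Hoxd10 to Hoxd12, Hoxa11, Casp14, St8sia5, Prss2, Try4, Amy2a5, Krt1, Krt5, Krt4 and Aqp3 were added after their values were seen. Some genes that this rule names are not reported here. Each library was 1 mouse. Alternatives were DESeq2 1.42.0, other scaling, filters and prior counts, a replicate block, a distal Hox covariate and each library left out.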

Additional observations from a re-analysis of the deposited data

How the results depend on the processing

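Under every alternative tried, 0 of the 10 genes were called. Of their 150 log2 fold changes under the alternatives, 133 kept their direction and side of the threshold and 17 changed sign. With 1 library left out in turn they ran from -0.31 to 0.27 for Scnn1a, -0.15 to 0.60 for Scnn1b, -1.24 to 0.82 for Scnn1g and -0.27 to 0.88 for Atp12a. Scnn1a was at 0.0071 with every counted gene kept, 0.0012 with DESeq2 and 0.15 with the distal Hox covariate, and Scnn1g was at 0.24 with that covariate. Without DSS 2 and DSS+BV 3, chosen after seeing the data, Scnn1a was at 0.26, Scnn1b at -0.10 and Sgk1 at -0.074. The cause was not tested. Over all genes, 13 lower and 0 higher genes were called, against 0 lower with the distal Hox covariate, 0 lower without DSS 2 and DSS+BV 3, and 280 lower and 45 higher with DESeq2. The covariate mainly set DSS+BV 3 apart, at -2.37, with DSS 2 next at 3.28. With 1 library left out, 0 to 3 lower and 0 to 4 higher genes were called. Of the transport lists, DESeq2 called 1 gene higher, Slc4a4.

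Replicate numbers did not pair the libraries (correlations of same-numbered deviations 0.267, 0.255 and -0.296, not every library closest to its own number). With the replicate block, 0 lower genes were called and Scnn1g was at 0.083.

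With 18 and 14 expected counts of Scnn1g in its lowest libraries, depth limited its ratios there.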
